A study of Mus musculus with 142 samples.

Results

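Control brainstem oligodendrocyte precursor cells (OPCs) were compared with control dorsal telencephalon OPCs after 2 days of differentiation in culture. The libraries were chosen by title: control genotype, brainstem or dorsal telencephalon origin, day 2. They were 18 of the 142 libraries of the series, 9 wells per region. Brains of P5 to P7 pups from litters of mice carrying hGFAP-Cre (AMGFAP-Cre in the labels) and the conditional H3.3 K27M allele were dissected, and tissue was pooled by region and genotype. The controls were the littermates without the K27M histone, on an FVB background, so that each culture stands for pooled pups and not for 1 mouse. The telencephalon tissue held cortex, corpus callosum and hippocampus. Cells bound by a BSL1 lectin dish (endothelial cells and microglia) were removed, and OPCs were then caught with an antibody to PDGFRa, expanded with PDGF, neurotrophin-3, CNTF and forskolin, and differentiated with thyroid hormone, CNTF and forskolin. Each region had 3 culture lines, numbered 38, 41 and 42, with 3 wells each. Brainstem lines were at passages 5, 4 and 8 and in sequencing batches 3, 4 and 4. Telencephalon lines were at passages 2, 3 and 1 and in batches 1, 2 and 2. No batch held both regions, so region and batch cannot be told apart in any value below. Every brainstem line was also at a later passage than every telencephalon line, so region, batch and passage cannot be told apart in these 18 wells.

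OPCs are the dividing cells of the oligodendrocyte lineage. On withdrawal of PDGF and addition of thyroid hormone they leave the cell cycle, pass through a short committed stage marked by Gpr17 and Bmp4, and then express the proteins and lipids of myelin. OPCs throughout the brain look alike, but they arise from different parts of the neural tube, where Hox genes specify hindbrain and spinal positions and factors such as Emx2 specify the telencephalon.

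Depth ran from 27.1 to 77.2 M read pairs over the 18 wells, around a median of 48.01 M, and 20151 to 25475 genes had a count. Levels are given as CPM, the usual count of a gene relative to the library's total, after TMM scaling over all libraries of the series. Where 3 values are given for a region they are means over the 3 wells of lines 38, 41 and 42, in that order. Oligodendrocyte lineage markers were abundant in both regions: Olig2, the lineage's defining factor, held 393, 311 and 362 CPM in brainstem lines and 286, 312 and 275 CPM in telencephalon lines, and the mature and myelin list summed to 1430 to 6352 TPM in brainstem wells and 4354 to 7955 TPM in telencephalon wells. Microglial markers summed to 0.15 TPM at most in brainstem wells and 0.641 TPM at most in telencephalon wells, and endothelial markers to 0.456 and 0.439 TPM. Neuronal markers summed to 11.0 to 56.9 TPM in brainstem wells and 39.1 to 58.6 TPM in telencephalon wells, Schwann cell markers to at most 1.5 and 1.54 TPM, and ependymal markers to at most 0.761 and 4.34 TPM. H3f3a, the gene that carries the conditional allele, held 304, 333 and 538 CPM against 345, 389 and 368 CPM, and Prm1, a germ cell gene whose tail is part of the Cre construct, held 0 CPM in 5 of the 6 lines and 0.00913 CPM in telencephalon line 42. In bulk RNA, fewer cells of a type and less RNA per cell cannot be told apart.

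Among these libraries, 2 wells stood apart from the other wells of their own line. Well 1 of brainstem line 38 was the shallowest library and nearly lacked mitochondrially encoded transcripts: mt-Co1, a subunit of cytochrome oxidase, was at 525 CPM there, against a median of 7745 CPM over the brainstem wells. Well 3 of telencephalon line 42 had the highest Mbp and Mog of all 18 wells, 11090 and 166 CPM, and the highest cell cycle level of the telencephalon wells. Many of the counts below are therefore also given without these 2 wells.

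The regional difference was tested on counts summed over the wells of each line (3 sums per region), with culture number in the model. In this primary test, edgeR's quasi-likelihood test with Benjamini-Hochberg adjustment, 0 of 18853 genes passed an adjusted p of 0.05 (the smallest was 0.0564), while 2395 genes (12.7%) had an unadjusted p below 0.05. Without the culture number, 184 genes passed (0.976%), 87 higher (0.461%) and 97 lower (0.515%) in brainstem cells. When all 48 line sums of the series (both genotypes, 4 days) shared 1 estimate of the spread, 1451 of 23006 genes passed (6.31%), 660 higher (2.87%) and 791 lower (3.44%) in brainstem cells at day 2. This wider fit treats the days of a line as independent and can call a gene on 1 line: in 1304 of its 1451 calls the lines of the regions did not overlap. With the days of a line allowed to correlate (estimated correlation 0.271, limma-voom, a fit added after the data were seen), 794 genes passed (3.45%; 1.46% higher and 1.99% lower), of which 763 had passed the 48-sum fit. With wells as samples, which treats wells of 1 line as independent, edgeR called 4771 of 16298 genes (29.3%; 14.6% higher and 14.7% lower) and DESeq2 with a fold threshold of 1.1 called 3110 of 22784 (13.6%; 6.18% higher and 7.47% lower). Without both wells that stood apart, the 48-sum fit called 1689 genes, 1355 of them shared with the full set. It called 378 genes without culture 38, 1195 without culture 41 and 341 without culture 42. Below, a gene "passed" if its adjusted p was under 0.05 in the 48-sum fit, log2 differences are brainstem minus telencephalon with the standard error of that fit, and no gene named here passed the primary test. The choice to read genes from this fit was made after the primary test had returned no gene. Of all genes in the primary test, 12.2% had all 3 brainstem lines above all 3 telencephalon lines and 10.5% had them below. These are the backgrounds for the counts of lines that did not overlap.

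Hox genes were the clearest difference between the regions. Of 39 listed Hox genes, 25 were tested in the 48-sum fit and 16 passed, all higher in brainstem cells. The count was 15 with correlated days, and 16 without the 2 wells. Hoxa2, which specifies the anterior hindbrain, held 6.31, 6.46 and 6.23 CPM in brainstem lines, and 2478 brainstem reads stood against 2 telencephalon reads over 9 wells each (edgeR adjusted p = 1.25e-13). Hoxa5, a gene of the caudal hindbrain and cervical cord, held 6.21, 3.92 and 6.40 CPM in brainstem lines and at most 0.0307 CPM in a telencephalon line (edgeR adjusted p = 1.14e-11). Hoxd4 held 2.57, 2.07 and 2.91 CPM, with 3 reads in all telencephalon wells together. HoxC genes had almost no reads in either region: Hoxc4 had 4 brainstem and 2 telencephalon reads, and Hoxc6 had 1 of each. Reads of neighbouring, overlapping Hox transcripts were shared out by Salmon's model, so values of single genes of a cluster are less certain than their sum.

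The brainstem lines differed from each other mainly in the more posterior Hox genes. For the 10 genes of paralog groups 1 to 5 in the primary test, the summed level was nearly equal between lines, 27.04, 25.1 and 27.2 CPM. For the 4 genes of groups 6 to 9 it was 7.19, 1.35 and 26.6 CPM. The highest brainstem line exceeded the lowest by 1.04-fold for Hoxa2 and 1.41-fold for Hoxa4, but by 13.2-fold for Hoxa7, 13.0-fold for Hoxb7 and 38.8-fold for Hoxd8. Hoxb4 was the most variable gene of the first group, at 5.40-fold. Hoxa7, a gene of the thoracic paralogs, held 3.69, 0.762 and 10.1 CPM and Hoxd8 held 2.00, 0.359 and 13.9 CPM. Line 42 was highest and line 41 lowest for all 4 posterior genes, and for Hoxa6, at 0.600, 0.0926 and 0.811 CPM, lines 38 and 42 were close together. The same order held for the summed posterior genes at day 0 (8.42, 2.30 and 26.7 CPM) and day 5 (4.20, 1.60 and 17.9 CPM). At day 1, brainstem line 38 stood above line 42, at 48.7 against 28.4 CPM, and its wells of that day came from passage 7 rather than passages 4 and 5. The part of passage in this was not tested.

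**Figure D1:**
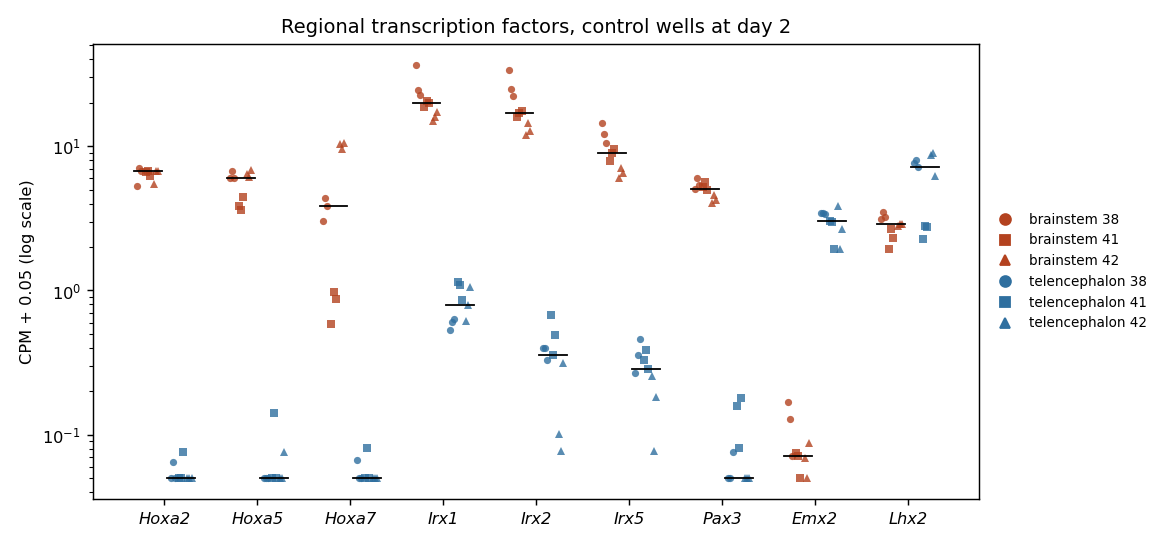
CPM + 0.05 on a log scale for 9 transcription factors in the 18 control wells at day 2, brainstem in red and telencephalon in blue, with marker shapes for the 3 culture lines and black bars for the median of 9 wells. Hoxa2, Irx2 and Pax3 lie high in every brainstem well and Emx2 in every telencephalon well, Hoxa7 spreads from 0.538 to 10.4 CPM over brainstem wells, and Lhx2 overlaps between regions.

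Iroquois and Pax3 genes followed the Hox genes. All 5 Irx genes tested passed, higher in brainstem cells, also with correlated days. Irx2 held 26.96, 16.8 and 13.0 CPM in brainstem lines and 0.328, 0.459 and 0.115 CPM in telencephalon lines, a log2 difference of 5.88 ± 0.54 (edgeR adjusted p = 2.52e-09). Irx1 differed by 4.79 ± 0.38 and Irx5 by 5.25 ± 0.44. Irx1 was the least tightly off in telencephalon cells, where wells ranged from 0.486 to 1.102 CPM. Pax3, a factor of the dorsal neural tube, held 5.44, 5.23 and 4.23 CPM against 0.0085, 0.0895 and 0 CPM. En1, a midbrain and hindbrain boundary gene, was low but passed, with 1.11, 0.470 and 2.83 CPM against 0.0881, 0.109 and 0.0445 CPM. Of 24 tested hindbrain and dorsal factors, 10 passed, all higher in brainstem cells (9 with correlated days and 9 without the 2 wells).

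Telencephalic factors showed the reverse. Of 27 tested, 11 passed, all lower in brainstem cells (10 with correlated days, 11 without the 2 wells). Emx2, a dorsal telencephalic factor, held 3.37, 2.61 and 2.76 CPM in telencephalon lines and 0.0736, 0.0153 and 0.0188 CPM in brainstem lines (edgeR adjusted p = 1.91e-09). Genes of the ventral telencephalon were also among those lower in brainstem cells: 7 of 13 subpallial genes passed, against 4 of 14 pallial genes. Dlx2, a factor of ventrally born cells, held 1.23, 0.408 and 1.35 CPM in telencephalon lines and 0.0322, 0.0867 and 0.135 CPM in brainstem lines. Lhx2, a cortical selector gene, did not pass: it held 3.23, 2.24 and 2.80 CPM in brainstem lines and 7.56, 2.55 and 7.89 CPM in telencephalon lines, where line 41 lay within the brainstem range.

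Cell cycle genes were more abundant in brainstem cells. All 48 listed genes had a log2 difference above 0 in the primary fit, where 9324 of 18853 genes did, with a median of 1.06 beside a median of 0.00 for all genes. For 37 of the 48, all 3 brainstem lines were above all 3 telencephalon lines. In the 48-sum fit 18 passed, all higher, and every one of them was among the 24 genes of DNA replication. None of the 24 mitotic genes passed, although their median difference was the same, 1.06. The count fell to 3 (Mcm2, Mcm6 and Prim1) with correlated days and was 22 without the 2 wells. Mcm6, part of the replicative helicase, held 71.3, 53.1 and 44.5 CPM against 18.1, 21.5 and 23.2 CPM, a log2 difference of 1.42 ± 0.34 (edgeR adjusted p = 0.00895). Over wells it ran from 38.0 to 88.6 CPM in brainstem cells and from 17.1 to 28.0 CPM in telencephalon cells, with no overlap. Mcm2, of the same helicase, held 97.9, 54.9 and 40.7 CPM against 21.5, 24.5 and 27.2 CPM. Cdc6, which loads the helicase onto origins, held 22.1, 13.1 and 6.96 CPM against 4.45, 5.42 and 5.07 CPM, and Cdc45, which activates it, 27.4, 15.2 and 10.2 CPM against 5.04, 6.29 and 7.28 CPM. Mki67, a protein of dividing cells, held 366, 250 and 166 CPM against 95.1, 119 and 134 CPM and did not pass (adjusted p = 0.0789). Ccnb1, the mitotic cyclin, overlapped between regions, at 145, 64.6 and 47.9 CPM against 21.3, 35.1 and 56.9 CPM.

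The cell cycle difference varied between lines. Taken between the lines of the same number, which were not shown to be pairs, and averaged over the 48 genes, it was 1.95 log2 units for lines 38, 0.95 for lines 41 and 0.25 for lines 42. On well values, leaving out the 2 wells that stood apart changed the difference in culture 42 from 0.24 to 0.45 and left it at 1.95 in culture 38. The mitotic genes spanned the wider range, from 2.19 in culture 38 to 0.11 in culture 42, and the replication genes ran from 1.70 to 0.40.

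The 250 bases before the RefSeq start of the 4 cell cycle genes with the largest passing differences (GRCm38.p6) are shown because these genes moved together. Capitals mark letters of the E2F sites TTTCCCGC, TTTGGCGC and TTTGGCGG, of the CHR element TTTGAA and of the CCAAT box CCAAT, on either strand.
Mcm6, chr1:128359706-128359955, minus strand: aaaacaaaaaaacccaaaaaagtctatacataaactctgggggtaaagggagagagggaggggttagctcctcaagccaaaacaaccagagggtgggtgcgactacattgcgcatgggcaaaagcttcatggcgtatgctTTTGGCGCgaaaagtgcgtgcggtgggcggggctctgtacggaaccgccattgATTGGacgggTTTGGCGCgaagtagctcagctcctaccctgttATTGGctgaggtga
Mcm2, chr6:88898781-88899030, minus strand: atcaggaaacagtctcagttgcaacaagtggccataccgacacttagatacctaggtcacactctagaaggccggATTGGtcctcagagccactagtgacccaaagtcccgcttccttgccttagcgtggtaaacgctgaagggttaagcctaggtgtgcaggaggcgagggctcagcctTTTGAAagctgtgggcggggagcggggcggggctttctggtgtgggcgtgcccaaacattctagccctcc
Cdc6, chr11:98907901-98908150, plus strand: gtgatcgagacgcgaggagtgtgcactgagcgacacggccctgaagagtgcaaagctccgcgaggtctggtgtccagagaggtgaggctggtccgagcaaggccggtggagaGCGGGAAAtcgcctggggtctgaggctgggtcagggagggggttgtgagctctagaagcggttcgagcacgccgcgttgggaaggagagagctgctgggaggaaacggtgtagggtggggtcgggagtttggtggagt
Cdc45, chr16:18811973-18812222, minus strand: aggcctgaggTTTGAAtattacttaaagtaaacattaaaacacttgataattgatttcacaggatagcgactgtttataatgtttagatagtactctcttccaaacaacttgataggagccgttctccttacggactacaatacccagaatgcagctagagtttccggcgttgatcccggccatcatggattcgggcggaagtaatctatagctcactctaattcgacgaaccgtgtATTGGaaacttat

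Mcm6 has 2 copies of TTTGGCGC, each followed at some distance by a reversed CCAAT box, and Cdc6 has 1 reversed TTTCCCGC. Mcm2 and Cdc45 have none of the 3 E2F forms in the window and 1 TTTGAA each. Promoter windows (250 bases before to 50 after the start) were present for 39 of the 48 cell cycle genes. An E2F form stood in 7 of 19 replication promoters (36.8%), in 0 of 20 mitotic promoters and in 2.16% of all 27025 promoters. TTTGAA stood in 15 of 20 mitotic promoters (75.0%), 2 of 19 replication promoters (10.5%) and 18.1% of all. CCAAT stood in 79.5% of the cell cycle promoters and 37.9% of all. A match is a run of letters and was not tested for binding.

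D-type cyclins, which couple growth factor signals to the cell cycle, went in opposite directions. Ccnd1 was higher in brainstem cells, at 292, 325 and 196 CPM against 50.3, 82.4 and 81.6 CPM (log2 difference 1.94 ± 0.39, edgeR adjusted p = 0.0022). Ccnd2 was lower, at 14.2, 10.8 and 5.21 CPM against 77.8, 21.9 and 47.6 CPM (−2.32 ± 0.56). Wells of the 2 regions did not overlap for either cyclin (2.02% of all genes had every brainstem well above and 2.63% every one below the telencephalon wells), and both passed with correlated days. Cdkn2a, which encodes the cell cycle inhibitors p16 and p19, was also higher in brainstem cells, at 8.89, 5.24 and 19.1 CPM against 1.1, 2.28 and 0.816 CPM (2.79 ± 0.70, edgeR adjusted p = 0.012). The 6 lines had the order of their passage numbers for Cdkn2a without exception, from 0.816 CPM at passage 1 to 19.1 CPM at passage 8. Of all genes in the primary test, 44 (0.233%) were in rising and 145 (0.769%) in falling order of passage over the 6 lines. With passage in the model in place of culture number, the Cdkn2a difference was 0.94 ± 0.36 on the log2 scale (edgeR adjusted p = 0.642). That of Ccnd1 was 2.38 ± 0.37 and that of Mcm6 1.70 ± 0.27, and neither passed in that fit. Every brainstem line was at a later passage than every telencephalon line, so this fit cannot separate region from passage for any gene. Cdkn2c, another inhibitor, passed as higher (52.02, 27 and 21.97 CPM against 14.0, 13.7 and 19.0 CPM) but not with correlated days (limma adjusted p = 0.169).

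**Figure D2:**
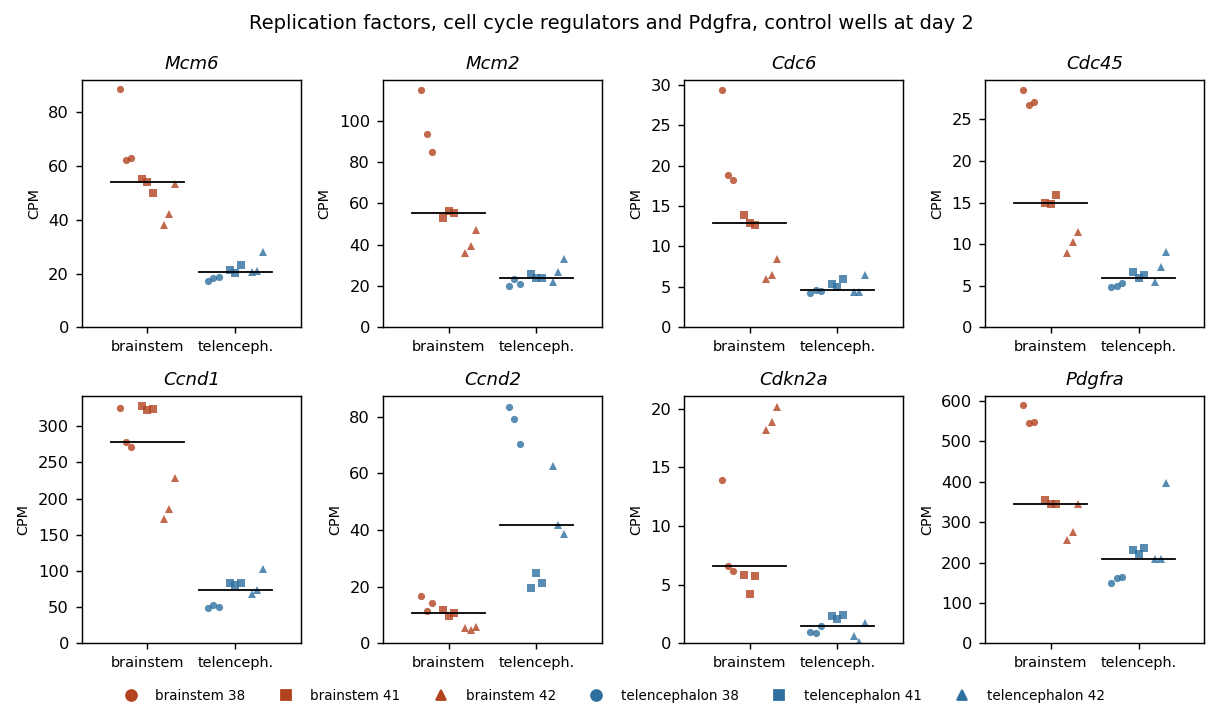
CPM of 8 genes in each of the 18 control wells at day 2, with axes from 0, brainstem in red and telencephalon in blue, marker shapes for culture lines and black bars for the median of 9 wells. Mcm6, Mcm2 and Ccnd1 are higher and Ccnd2 is lower in every brainstem well, the brainstem wells of line 38 are highest for the replication genes, and Pdgfra overlaps because well 3 of telencephalon line 42 lies at 397 CPM.

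The OPC list was mixed. Of 19 genes, 5 passed as higher (Cspg5, Megf11, C1ql1, Gria3 and Lmnb1) and 3 as lower (Matn4, Emid1 and Rlbp1) in brainstem cells, with 4 and 1 under correlated days and 7 and 3 without the 2 wells. C1ql1, a secreted C1q-related protein of OPCs, showed the largest rise, at 40.6, 20.1 and 20.1 CPM against 3.91, 3.32 and 4.01 CPM (2.77 ± 0.44, edgeR adjusted p = 0.000119). Megf11 held 19.6, 17.5 and 15.6 CPM against 4.27, 6.82 and 5.34 CPM. Pdgfra, the PDGF receptor used to capture the cells, held 562, 348 and 292 CPM against 158, 229 and 272 CPM, so all brainstem lines were above all telencephalon lines, but it did not pass (0.92 ± 0.29, adjusted p = 0.0532). Without the 2 wells its adjusted p was 0.0229. Cspg4, the NG2 proteoglycan, behaved likewise, at 102, 70.9 and 72.6 CPM against 26.9, 39.6 and 40.6 CPM (adjusted p = 0.0533, and 0.0266 without the 2 wells).

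Few genes of the committed stage or of myelin passed, about the share among all genes. The 48-sum fit called 2.87% of all genes as higher and 3.44% as lower. Of 20 committed stage genes 1 passed, Bmp4, which was lower and is described with its pathway below. Of 36 mature and myelin genes, 1 passed as higher and 1 as lower, and neither passed with correlated days: Cntn2, a cell adhesion protein, held 2.57, 3.50 and 4.63 CPM against 0.968, 1.37 and 1.59 CPM, and Car2 held 1.16, 1.57 and 2.04 CPM against 6.00, 2.17 and 19.4 CPM. The Car2 call was lost without the 2 wells that stood apart (adjusted p = 0.0609). Mbp, a major protein of central myelin, held 2869, 5391 and 5243 CPM in brainstem lines and 6272, 5426 and 7393 CPM in telencephalon lines, a log2 difference of −0.51 ± 0.97 in the 48-sum fit. The differences of 2 other myelin genes were also smaller than their errors, for Mag −0.46 ± 1.04 and for Cnp −0.13 ± 0.37. With standard errors of this size, equality was not shown. Well 3 of telencephalon line 42 held 11090 CPM of Mbp against 4818 to 6954 CPM in the other telencephalon wells, and the mean difference of the mature and myelin list over the wells of culture 42 was −0.17 log2 units with it and 0.24 without it. Gpr17, the receptor of the committed stage, was similar on average but spread differently, from 573 to 1739 CPM over brainstem wells and from 905 to 1338 CPM over telencephalon wells.

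Opalin, a late protein of oligodendrocytes, was an exception in the levels of its wells. It held 38.1, 57.3 and 48.6 CPM in brainstem lines and 29.0, 14.6 and 10.8 CPM in telencephalon lines, and the lowest brainstem well (31.9 CPM) lay above the highest telencephalon well (31.0 CPM). Opalin did not pass in the 48-sum fit (1.48 ± 0.54, adjusted p = 0.0945). Mobp, another myelin gene, went the other way at 65.2, 98.05 and 210 CPM against 205, 140 and 679 CPM, and did not pass. Of the lineage factors, Sox10 held 170, 178 and 208 CPM against 305, 324 and 244 CPM (adjusted p = 0.0595), and Myrf, which switches on myelin genes, held 117, 217 and 247 CPM against 245, 333 and 236 CPM (adjusted p = 0.739).

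**Figure D3:**
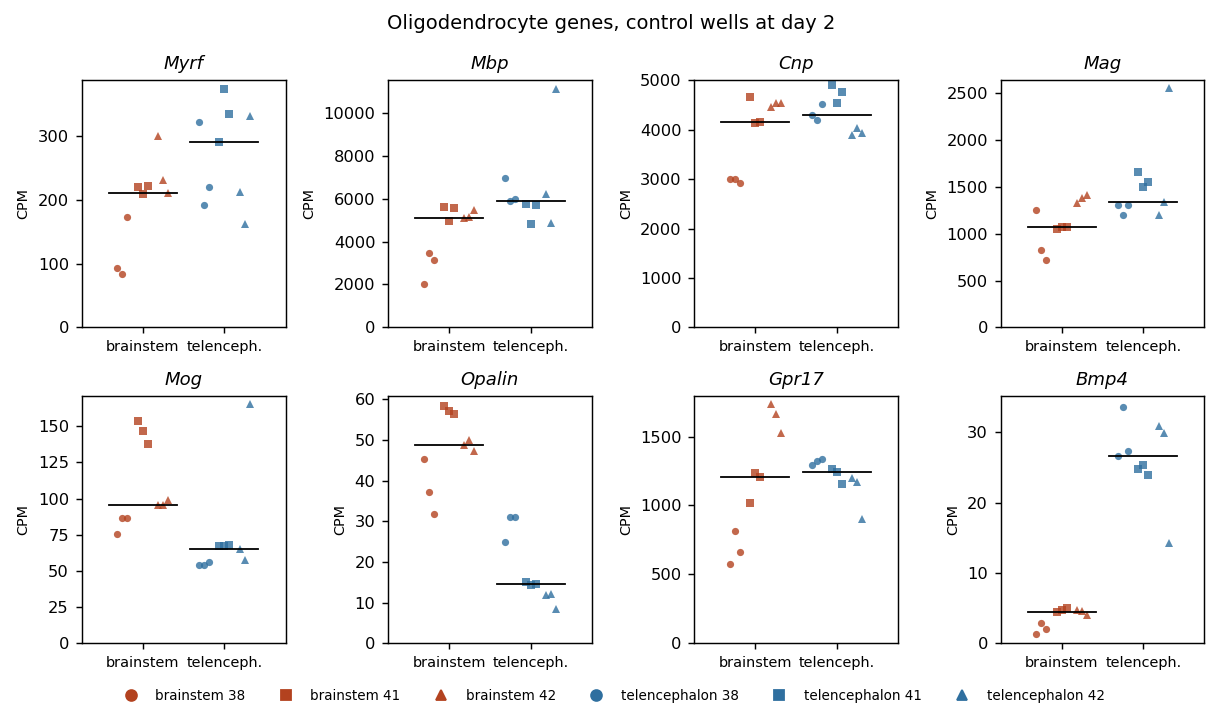
CPM of 8 oligodendrocyte genes in each of the 18 control wells at day 2, with axes from 0, brainstem in red and telencephalon in blue, marker shapes for culture lines and black bars for the median of 9 wells. Myrf, Cnp and Gpr17 overlap between regions, Opalin is higher and Bmp4 lower in every brainstem well, and 1 well of telencephalon line 42 is the highest for Mbp, Mag and Mog.

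Sterol synthesis, which supplies cholesterol to growing myelin, did not differ past the threshold: 0 of 20 synthesis genes passed, with 0 at an unadjusted p below 0.05 in the primary edgeR fit, and 2 higher and 3 lower when wells were taken as samples, a test that called 29.3% of all genes. Hmgcs1, an enzyme of the first steps, differed by −0.13 ± 0.20. Of 7 genes of cholesterol uptake and control, 1 passed as higher and 1 as lower. Abca1, which exports cholesterol, was lower in brainstem cells, at 6.71, 11.2 and 11.3 CPM against 81.7, 26.0 and 112 CPM (−2.79 ± 0.53, edgeR adjusted p = 0.00113), and Stard4, a carrier within the cell, was higher, at 66.1, 77.0 and 86.3 CPM against 39.5, 42.2 and 46.6 CPM (0.81 ± 0.17). Both passed with correlated days.

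Astrocyte genes were lower in brainstem cells. Of 20 genes, 10 passed, all lower (7 with correlated days, 10 without the 2 wells). Gfap, the astrocyte intermediate filament, held 13.5, 49.7 and 10.5 CPM against 1105, 208.5 and 1304 CPM (−5.06 ± 1.34, edgeR adjusted p = 0.0182), and Aqp4, the astrocyte water channel, held 0, 2.89 and 1.44 CPM against 168, 32.0 and 364 CPM. Telencephalon line 41 held the least of both among telencephalon lines. Slc1a2, the astrocyte glutamate transporter, was at 113, 90.9 and 60.3 CPM against 124.7, 40.04 and 122 CPM and did not pass. Summed over the list, brainstem wells held 36.5 to 130.5 TPM and telencephalon wells 120.9 to 679 TPM, so 1 or more brainstem wells exceeded the lowest telencephalon well. Genes of mural cells and fibroblasts moved with these: 7 of 10 passed, all lower (3 with correlated days), their sum was 0.0245 to 0.225 TPM in brainstem wells and 1.62 to 9.05 TPM in telencephalon wells, and Acta2, smooth muscle actin, held 0, 0.0227 and 0 CPM against 8.53, 3.28 and 11.2 CPM.

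Matrix genes shared the pattern of the astrocyte list. Of 41 integrin and matrix genes, 15 passed as lower and 3 as higher in brainstem cells (8 and 2 with correlated days, 14 and 3 without the 2 wells). Lamb2, a laminin chain, held 0.0647, 0.215 and 0.239 CPM against 11.2, 3.80 and 16.8 CPM, Serpinh1, a collagen chaperone, held 1.11, 1.48 and 0.170 CPM against 34.5, 8.10 and 43.6 CPM, and Col5a2 held 0.218, 0.194 and 0.065 CPM against 2.82, 1.15 and 3.59 CPM. In each of these, telencephalon line 41 was again the lowest telencephalon line. Itga4 and Itga9, integrin chains that were among the 3 higher genes, did not share that order. Abca1 and Ccnd2, described above, also had line 41 as their lowest telencephalon line. The part of astrocyte or mural cells in the differences of matrix genes, Abca1 and Ccnd2 was not tested.

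Bone morphogenetic protein (BMP) signalling, which turns OPCs away from myelination, was represented by fewer transcripts in brainstem cells. Of 33 genes, 9 passed as lower and 1 as higher, with the same counts under correlated days and without the 2 wells. Bmp4, the ligand, held 2.06, 4.74 and 4.40 CPM against 29.2, 24.7 and 25.0 CPM (−2.78 ± 0.81, edgeR adjusted p = 0.0324), and its brainstem wells (1.37 to 5.05 CPM) lay below its telencephalon wells (14.3 to 33.6 CPM). Id1, Id3 and Id4, inhibitors of differentiation that BMP signals induce, fell together. Id1 held 3.23, 7.90 and 2.38 CPM against 30.5, 19.4 and 33.6 CPM (−2.59 ± 0.64), and Id4 differed by −2.56 ± 0.54. The antagonist Nog was lower too, at 0.197, 0.119 and 0.0588 CPM against 1.12, 0.692 and 1.65 CPM. Msx1 was the gene that was higher, at 6.40, 3.52 and 2.97 CPM against 0.903, 1.09 and 0.951 CPM. Telencephalon line 41, the line with the fewest astrocyte transcripts, was also the lowest telencephalon line for Id1, Id4 and Nog, while for Bmp4 its 24.7 CPM was close to the 25.0 CPM of line 42.

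Of all genes, the 48-sum fit called 2.87% as higher and 3.44% as lower, and with correlated days the shares were 1.46% and 1.99%. These are the backgrounds for the list counts of these fits, here and in the other paragraphs. In the Notch list 4 of 21 genes passed, all lower in brainstem cells (5 with correlated days). Without the 2 wells that stood apart, 5 passed as lower and 1 as higher. Lfng, which modifies Notch receptors, held 8.58, 8.55 and 5.14 CPM against 57.4, 19.4 and 53.2 CPM (−2.53 ± 0.47), and Hes1, a Notch target, held 0.133, 0.283 and 0.367 CPM against 1.52, 0.890 and 1.99 CPM. In the Wnt list 2 of 41 passed as higher and 4 as lower (2 and 2 with correlated days, where Fzd6 and Sfrp1 had limma adjusted p-values of 0.168 and 0.0598). Lgr5, a receptor for R-spondins, was higher at 17.2, 11.0 and 7.20 CPM against 1.105, 2.05 and 1.62 CPM (2.93 ± 0.32, edgeR adjusted p = 1.53e-07). The receptors Ror2 and Ror1 split: Ror2 was higher (8.30, 3.58 and 2.96 CPM against 0.768, 1.02 and 0.893 CPM) and Ror1 lower (3.49, 3.48 and 0.810 CPM against 12.7, 5.72 and 8.47 CPM). For TGF-beta, 3 of 15 genes passed as lower and 1 as higher (2 and 0 with correlated days, 2 and 1 without the 2 wells). Among the lower genes was Tgfbr2, a receptor, at 0.284, 0.199 and 0.235 CPM against 2.37, 0.792 and 2.27 CPM. Igf1r, the receptor for insulin-like growth factor, was 1 of 4 growth factor receptors that passed as lower, of 17, and the only one that also passed with correlated days (30.4, 32.9 and 24.6 CPM against 68.8, 61.4 and 43.7 CPM). Without the 2 wells that stood apart, 4 of these receptors passed as lower and 1 as higher.

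Of 31 channel and transmitter receptor genes, 6 passed as lower and 2 as higher (5 and 2 with correlated days and also without the 2 wells). Gria1, an AMPA receptor subunit, held 1.47, 2.64 and 1.85 CPM against 35.2, 9.03 and 26.6 CPM (−3.46 ± 0.68, edgeR adjusted p = 0.00159), whereas Gria3, another AMPA subunit, was higher at 61.6, 58.0 and 35.2 CPM against 22.5, 21.6 and 30.7 CPM. The GABA receptor subunits Gabra4 (−3.27 ± 0.67) and Gabrb1 (−2.53 ± 0.73) and the NMDA subunit Grin2b (−2.78 ± 0.71) were lower. Of 37 guidance genes, Robo1, Epha3 and Sema3a passed as higher, of which Epha3 alone passed with correlated days (limma adjusted p = 0.0667, 0.02 and 0.0589), and 33 genes did not pass. Efnb3, an ephrin, was the 1 gene that passed as lower, at 18.5, 23.8 and 22.6 CPM against 58.8, 69.5 and 81.3 CPM. Without the 2 wells that stood apart, 4 guidance genes passed as higher and 2 as lower. Among genes named by size of difference outside the lists, those that passed as higher included Ptgfrn, an inhibitor of prostaglandin receptors (100, 44.3 and 63.3 CPM against 8.25, 5.34 and 12.04 CPM, 3.10 ± 0.40), Tenm2, a teneurin adhesion receptor (9.43, 6.51 and 7.63 CPM against 0.557, 0.937 and 0.624 CPM), and Htr3a, a serotonin-gated channel (26.4, 6.85 and 13.6 CPM against 1.79, 1.78 and 1.62 CPM). Those that passed as lower included Gna14, a G protein subunit (0.083, 0.119 and 0.0579 CPM against 11.3, 2.88 and 15.1 CPM), and Fbln2 and Hopx, at 4.23 ± 0.60 and 4.12 ± 0.80 log2 units lower.

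**Figure D4:**
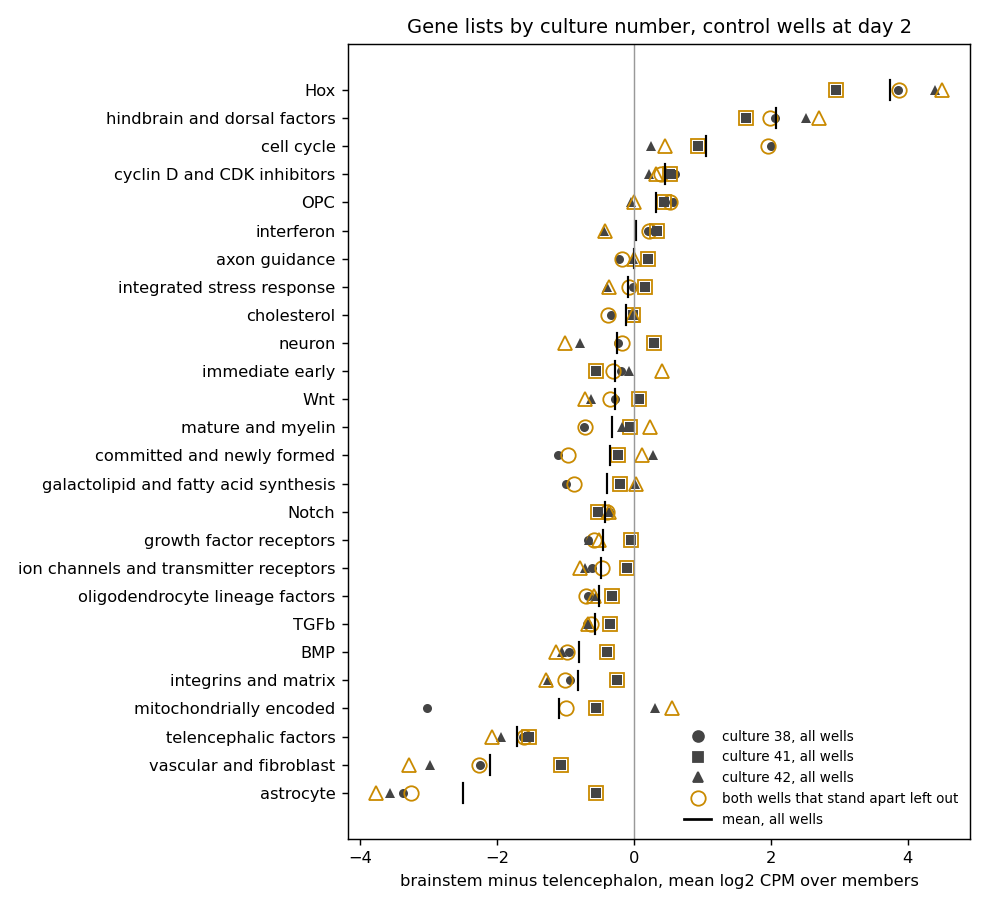
Brainstem minus telencephalon mean log2 CPM over the members of 26 gene lists, taken between lines of the same number (38, 41 and 42, not shown to be pairs) at day 2. Filled grey markers use all wells, open amber markers leave out the 2 wells that stood apart, and black bars are means over cultures. Hox and hindbrain genes lie above 0 and telencephalic, vascular and astrocyte genes below 0 in all 3 cultures, cell cycle genes run from 0.24 to 2.00, and the mitochondrial value of culture 38 moves from −3.03 to −1 without its odd well.

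In the lists not described so far few or no genes passed, in a fit that called 2.87% of all genes as higher and 3.44% as lower. Of 12 interferon genes 1 passed as higher (Rsad2), of 15 stress response genes 1 as lower (Slc7a11, with a limma adjusted p of 0.147 with correlated days), of 16 neuronal genes 1 as higher (Elavl4), and of 13 mitochondrially encoded genes 1 as lower (mt-Co2). None of 18 galactolipid and fatty acid genes and none of 13 immediate early genes passed in edgeR's 48-sum fit. In the primary edgeR fit, 1 of 18 and 5 of 12 tested had an unadjusted p below 0.05, where 12.7% of all genes did. With wells as samples, 10 of 18 and 5 of 12 were called, where 29.3% of all genes were. All 18 galactolipid and fatty acid genes had a difference below 0 in the primary fit, with a median of −0.41. Their mean difference was −0.95 between lines 38, −0.19 between lines 41 and 0.04 between lines 42. The median of the mitochondrially encoded genes was −0.58, with 2 of 13 above 0. Their mean ran from −1.18 between lines 38 to 0.08 between lines 42, and brainstem line 38 includes the well that nearly lacked these transcripts. The 6 sex-linked genes had no call in edgeR's 48-sum fit, and the 5 in the primary fit had a median of −0.99, from a mean of 0.13 between lines 38 to −1.50 between lines 42. Of the oligodendrocyte lineage factors, 3 of 19 passed as lower, and these were the 3 Id genes.

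Whether the regional difference was particular to day 2 was tested with region-by-day terms within lines. Against day 1, 36 of 21912 genes differed (0.164%), 14 with a more positive (0.0639%) and 22 with a more negative difference (0.1%) at day 2, and 3873 genes had an unadjusted p below 0.05. The count was 10 without both wells that stood apart, 3 without culture 38 and 1 without culture 42. Against day 0 and day 5, 0 genes passed in edgeR, with 2590 and 2611 at an unadjusted p below 0.05. Opalin had the largest positive change: at day 1 it held 6.02 CPM in brainstem and 14.4 CPM in telencephalon cells on average, at day 2 it held 48 against 18.1 CPM, an interaction of 2.86 ± 0.52 log2 units (edgeR adjusted p = 0.0494). Cntn3, an adhesion molecule, held 13.45 against 47.1 CPM at day 1 and 55.6 against 56.4 CPM at day 2 (1.84 ± 0.33). Pim3 and Ppp1r16b showed the same form, at 56.4 against 160 CPM and 333 against 833 CPM on day 1 and 196 against 184 CPM and 1090 against 1186 CPM on day 2. Kif26b had the opposite change, from 3.79 against 1.97 CPM at day 1 to 1.85 against 5.02 CPM at day 2 (−2.41 ± 0.35), as did Zfp521 (36.6 against 26.6 CPM, then 23.4 against 39.6 CPM).

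Lists over days placed the day 2 values in a sequence. The mature and myelin list was lower in brainstem cells by 1.09 log2 units at day 1 (range over cultures −1.63 to −0.71), by 0.39 at day 2 (−0.72 to −0.04) and by 0.11 at day 5. The committed stage list differed by −1.29 at day 1 and −0.33 at day 2, and the cholesterol list by −0.46 and −0.11. At day 2 the committed stage values were −1.04, −0.21 and 0.27 in cultures 38, 41 and 42. Those of the cholesterol list were −0.37, 0.01 and 0.03. Neither list had 1 sign in all 3 cultures at day 2. Of these 3 lists 1 member, Opalin, passed the day 2 against day 1 test. Mbp at day 1 held 108 CPM in brainstem and 1491 CPM in telencephalon cells. The cell cycle list differed by 0.09 at day 0, 0.62 at day 1, 1.05 at day 2 and 0.80 at day 5. Hox genes differed at each day, by 4.13 to 5.02. The cultures at different days came from different passages in part, so a change between days is also a change of passage.

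**Figure D5:**
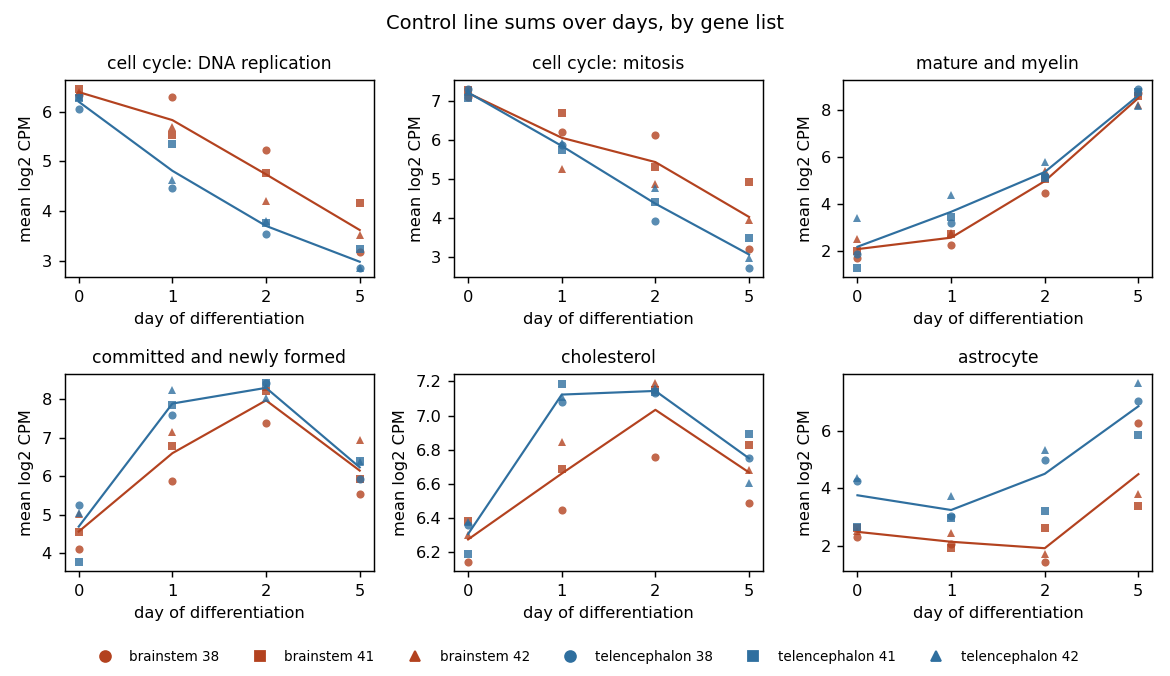
Mean log2 CPM of 6 gene lists in control line sums at days 0, 1, 2 and 5 (evenly spaced on the axis), brainstem in red and telencephalon in blue, with 1 marker per culture line and lines through the means. Cell cycle genes fall from day 0 in both regions, with brainstem above telencephalon by 1.05 over all 48 members at day 2, and myelin and committed genes lie lower in brainstem cells at day 1 and closer together at day 2.

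At day 2 the same regional contrast was available in 17 wells of cells with the K27M histone. Brainstem lines 38, 41 and 42 of this genotype were at passages 5, 2 and 6. Its telencephalon lines were at passages 3 or 4, 2, and 1 or 3. The region-by-genotype term passed for 0 of 19888 genes in edgeR, with 1230 at an unadjusted p below 0.05 (6.18%). The Hox difference had the same direction: Hoxa2 held 10.2 CPM in K27M brainstem and 0.00827 CPM in K27M telencephalon cells. Gfap held 114 and 123 CPM in K27M cells, against means of 24.6 and 873 CPM in controls, and Id1 16.2 and 11.9 CPM. Ccnd1 held 192 and 71.7 CPM and Cdkn2a 0.664 and 0.463 CPM. None of these genes passed the test of a different regional effect.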

How the data were processed

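RNA of 18 control wells at day 2 was sequenced by the study as stranded total RNA (paired reads, NovaSeq). The authors quantified transcripts with Salmon 1.10.1 (mm10), and the deposited estimated counts and TPM per transcript were used. Counts were summed per gene with the GENCODE M21 annotation, where the study's methods name M25: 139821 of 141084 transcripts matched 54127 genes, and unmatched transcripts held 0.266 to 0.362% of counts. Salmon shares reads between overlapping transcripts and near-identical copies, so single paralogs are less certain. Counts were summed over the 3 wells of a line, which share its cells, and rounded. Genes passed edgeR's expression filter (minimum count 10). The main test was edgeR 4.0.16's quasi-likelihood test on 6 line sums with TMM scaling and culture number as a term, with Benjamini-Hochberg adjustment at 0.05. Wider fits used all 48 line sums (edgeR) and limma 3.58.1. DESeq2 1.42.0 was an alternative, all in R 4.3.3. The scripts were tested on simulated counts that held no shared effect of a line. That test cannot show how often the 48-sum and well fits call falsely when wells or days of a line depend on each other.

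The rule for named genes took the 10 highest and 10 lowest protein-coding genes past the threshold with a mean of at least 5 CPM in a region and 1 sign in all 3 cultures, up to 4 called members per list with at least 1 CPM, 5 genes per direction for changes between days, and a set of anchor genes given whether or not they passed. Since it named 0 genes by the main test, it was applied to the 48-sum fit and to the 6-sum fit without culture number, a choice made after values were seen. Some further members of small counts were named after their values were seen. The comparison, its members and the 31 gene lists (670 genes) were chosen with earlier results of these data known. The labels do not say whether the lines of a region came from separate litters, so p-values of the 6-sum fits measure the spread between these lines. Those of the 48-sum fit rest on a spread shared over both genotypes and 4 days, with the days of a line taken as independent. They do not measure the spread between the control lines of day 2 alone. Values of some genes are not reported here.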

Additional observations from a re-analysis of the deposited data

Results flagged for a closer look

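List scores (mean log2 CPM over members) were searched for a single well far from the other 8 of its region, by Dixon's test, in 66 tests, of which 7 were past the 95% limit. Chance gives about 1 in 20. Well 1 of brainstem line 38 was far from the others for the cyclin D and CDK inhibitor list (5.387, others 4.494 to 4.801), for mitochondrially encoded genes (0.04323, others 6.004 to 6.914) and for the construct check genes (3.629, others 4.063 to 4.409). Well 3 of telencephalon line 42 was far from the others for cell cycle genes (4.685, others 3.607 to 4.113), for the committed stage list (7.717, others 8.109 to 8.454) and for mature and myelin genes (6.383, others 5.067 to 5.234). Well 2 of telencephalon line 42 was low for mitochondrially encoded genes (5.898, others 6.677 to 7.265). The regional difference changed between day 1 and day 2, by the interaction test, for 36 genes.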

How the results depend on the processing

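With culture number as the replicate block, 0 genes were called, and without the block 184 (87 higher, 97 lower). Line deviations from the region means correlated at −0.0756, −0.0311 and −0.114 between same-numbered lines, so the numbers name lines and were not shown to pair them. With the block, calls numbered 4771 with wells as samples (2378 higher, 2393 lower), 3110 in DESeq2 on wells (1407, 1703), 1195 in DESeq2 on sums (462, 733), 357 without the low-count filter (167, 190), 4 with an effective length offset (3, 1) and 1451 with 48 sums (660, 791). RLE and upper quartile scaling gave 0. Passage in place of culture gave 2 (2 higher). Leaving out culture 38, 41 or 42 with the block gave 0, 167 and 16. The day 2 minus day 1 count was 36, and ran from 1 to 23 without 1 culture. The day 2 minus day 0 count was 0, and 0 to 2 without 1 culture. With wells as samples the counts for days 0, 1 and 5 were 3521, 5370 and 3904. The following were chosen after seeing the data. Limma-voom with correlated days gave 794 (337, 457). Leaving out well 1 of brainstem line 38 gave 3 (3 higher), 205 without the block (95, 110) and 1383 with 48 sums (616, 767). Leaving out well 3 of telencephalon line 42 gave 0, 207 (99, 108) and 1746 (867, 879). Leaving out both gave 0, 214 (103, 111) and 1689 (823, 866). The day 2 minus day 1 count was 22, 10 and 10 without the first, the second and both wells. Leaving out culture 38, 41 or 42 without the block gave 1, 297 and 6, and with 48 sums 378, 1195 and 341. Over all fits that left out 1 culture, the calls ran from 0 to 1195 (0 to 524 higher, 0 to 671 lower). The cause of these changes was not tested. No named gene that was called changed direction under an alternative. The list medians were less stable. Of the 31 medians, 9 were counted as moved from the primary fit when passage took the place of culture number. When 1 culture was left out, 3 to 6 were counted as moved, depending on the culture and the fit.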

Other observations

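Several of the largest differences in the 48-sum fit were processed pseudogenes, which the rule for named genes left out. Gm8430 held 94.0 CPM in brainstem line 38 and 0 CPM in brainstem lines 41 and 42, with at most 0.0255 CPM in a telencephalon line, and had an adjusted p of 0.00371 in edgeR's 48-sum fit and 0.387 with correlated days in limma. Cbx3-ps6 held 40.4 CPM in brainstem line 38 and at most 0.0424 CPM in the other lines, with adjusted p-values of 0.0344 and 0.343. Gm10132 held 24.1 CPM in brainstem line 38 and at most 0.0842 CPM elsewhere. In each of these 3 genes the reads came from well 1 of line 38, the shallow well, at 282, 121 and 72.3 CPM for Gm8430, Cbx3-ps6 and Gm10132, while wells 2 and 3 were at 0 or at most 0.0674 CPM. Without the 2 wells that stood apart none of the 3 passed (adjusted p = 0.997, 0.576 and 0.482 in edgeR's 48-sum fit). The genes were chosen after their values were seen, and the cause was not tested.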
